A study of Mus musculus with 6 samples.

Results

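The genes described here are 10 genes that encode the constant parts of antibodies and the chain that joins them: the heavy chain constant genes Ighm, Ighd, Ighg1, Ighg2b, Ighg2c, Ighg3 and Igha, the light chain constant genes Igkc and Iglc2, and Jchain. They were chosen by gene symbol and not by their values, and they are 10 of the 45777 genes in the tables. Estimated read counts were summed over the rows of each gene, which is 1 row for each of the 10, and CD4+Lrig1+ T cells were compared with CD4+Lrig1- T cells within each table.

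The RNA came from splenic CD4+ T cells of female mice of the inbred strain C57BL/6, 7 weeks of age, isolated as CD4+Lrig1+ or CD4+Lrig1- cells (Lrig1+ and Lrig1- cells below). Lrig1 is a transmembrane protein with leucine-rich repeats, and no treatment or engineered allele is named for either group. By their labels each group has 3 samples, of which 2 libraries per group were analysed: set 1 and set 2 are tables that each hold 1 Lrig1+ and 1 Lrig1- library. Nothing in the labels says that the libraries came from separate animals, so every p below measures the spread between these libraries, which may be technical.

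An antibody is built from heavy chains and light chains, which B cells and the plasma cells that derive from them make. A B cell first joins its variable segments to Ighm and Ighd, the genes of IgM and IgD, and can later switch to a downstream gene of the same locus and make IgG or IgA. The light chain is kappa (Igkc) or lambda (Iglc1, Iglc2 and Iglc3 in the mouse), and the J chain links the units of secreted IgM and IgA. T cells rearrange T cell receptor genes instead of immunoglobulin genes, but the constant region of the heavy chain locus can be transcribed in lymphocytes without a joined variable segment.

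The sequences below, read from the GENCODE transcripts of GRCm38, show what sets the J chain partners apart from IgG. In the secreted forms of Ighm (chr12:113420867-113420929) and Igha (chr12:113258768-113258830), both on the minus strand, the last 63 coding bases end with a cysteine codon, in capitals, next to the last codon before the stop. Through this cysteine the chains are linked to the J chain. The same stretch of Ighg2c (chr12:113287389-113287451, minus strand) has no such codon at that place.
Ighm: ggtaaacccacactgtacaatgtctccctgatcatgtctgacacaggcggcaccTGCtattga
Igha: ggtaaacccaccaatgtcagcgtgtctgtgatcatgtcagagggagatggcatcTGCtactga
Ighg2c: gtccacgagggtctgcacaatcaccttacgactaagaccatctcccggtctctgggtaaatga

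A second pair of sequences shows where counts can be shared between genes. Over 317 aligned coding bases, Iglc2 and the neighbouring lambda gene Iglc3 are 96.5% identical and differ at 11 bases. The first 120 of these bases are printed with the 7 differing bases in capitals, for Iglc2 at chr16:19198733-19198852 and for Iglc3 at chr16:19065562-19065681, both on the minus strand.
Iglc2: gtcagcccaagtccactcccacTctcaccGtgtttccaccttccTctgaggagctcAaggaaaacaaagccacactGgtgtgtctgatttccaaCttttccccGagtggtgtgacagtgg
Iglc3: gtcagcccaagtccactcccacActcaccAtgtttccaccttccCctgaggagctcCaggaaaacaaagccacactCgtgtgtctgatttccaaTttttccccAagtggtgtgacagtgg
The reads were paired and 50 bases long, and 15.2% of the 50-base windows in the Iglc2 coding sequence also occur in Iglc3. Of the windows of Ighg2b 5.83% occur in Ighg2c, and of those of Ighg2c 5.85% occur in Ighg2b, so the counts of these 3 members are less certain. For the other 7 members 0 windows of the coding sequence occur in a transcript of another gene. Only the coding bases of a single transcript per gene were scanned, and some counted rows are longer. The row of Jchain, for example, has 2102 bases against 480 coding bases. The library kit keeps the strand of the RNA, but whether strand was used in counting is not given in the sources used here.

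The counts totalled 44865070 to 59977951 per library. Lrig1 itself was at 221 CPM (a count scaled to the size of its library by the TMM method) in Lrig1+ and 75.4 in Lrig1- cells of set 1, and at 129 and 36.7 CPM in set 2. Of the 11 T cell identity genes, all were tested and their summed level was 5890 and 9431 CPM in Lrig1+ and 5513 and 9153 CPM in Lrig1- cells (set 1 and set 2). Trac, the constant gene of the T cell receptor alpha chain, had an FPKM of 738 and 1101 in Lrig1+ and 790 and 1163 in Lrig1- cells, so the libraries carried the T cell genes that their labels name. In bulk RNA, fewer cells of a type and less RNA per cell cannot be told apart.

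Counts from the 10 members were present in all 4 libraries, and their level differed more between the sets than between the groups. They took 0.0840% and 0.163% of all counts in Lrig1+ cells (set 1 and set 2) and 0.0502% and 0.205% in Lrig1- cells. Summed over the 10, the level was 782 CPM in Lrig1+ and 470 CPM in Lrig1- cells of set 1, a log2 ratio of 0.73. In set 2 it was 1687 and 2279 CPM, a log2 ratio of -0.43. The direction therefore differed between the sets, and the difference of the group means of log2 CPM was 0.15 (exact permutation test, two-sided, p = 1, n = 2 per group). With 2 libraries against 2, that test cannot give a p below 0.3333.

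The sum is mostly Ighm. This gene held 93.2% and 77.1% of the members' counts in Lrig1+ cells (set 1 and set 2) and 90.8% and 66.4% in Lrig1- cells. Without it, the other 9 members summed to 53.5 and 43.2 CPM in Lrig1+ and Lrig1- cells of set 1 (log2 ratio 0.31) and to 386 and 765 CPM in set 2 (log2 ratio -0.99). The difference of group means was then -0.34, of the opposite sign to that with Ighm, and again did not exceed the spread between libraries (exact permutation test, p = 1).

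**Figure D1:**
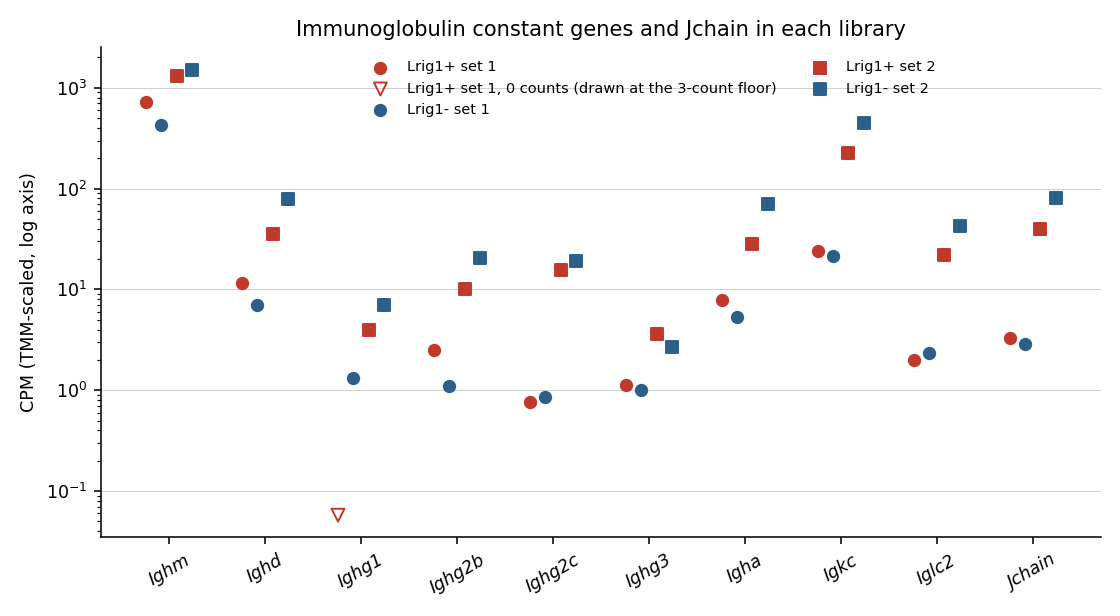
Level of each gene in each library, in TMM-scaled CPM on a log axis, with Lrig1+ in red, Lrig1- in blue, set 1 as circles and set 2 as squares. Each point is 1 library, and the open triangle marks Ighg1 in the Lrig1+ library of set 1, which had 0 counts and is drawn at the level of 3 counts. For all 10 genes both squares lie above both circles.

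All 10 members passed the filter on low counts, and edgeR's quasi-likelihood test over the 16123 genes tested called 0 of them, at an adjusted p of 1.00 for each. The test called 0 genes of all those tested, that is 0% in either direction, while at an unadjusted p under 0.05 it had 4.18% higher and 1.41% lower and none of the 10. In 0 of the 10 did the groups fail to overlap, against 26.1% of all genes tested. For 6 of the 10 the log2 ratio within a set, computed with a prior count of 2, had opposite signs in the sets, against 22.0% of all genes. In set 2, 9 of 10 were lower in Lrig1+ cells (56.9% of all genes were) and 7 of 10 by at least 0.5 on the log2 scale (18.9% of all genes). The 10 genes had a median log2 ratio of 0.19 in set 1 and -0.95 in set 2, and all genes tested had 0.00 and -0.08.

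A second model, named the table block, had the set of each library as an added term. It called 14.6% of all genes higher and 12.8% lower, and of the 10 members it called 1, Iglc2, which was lower in Lrig1+ cells by a log2 fold change of -0.69 (edgeR, adjusted p = 0.0212). This share of the members is not above that of all genes.

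Ighm, which encodes the heavy chain of IgM (gene ID 16019, chr12:113418826-113422730), had 37870 counts in the Lrig1+ and 20455 in the Lrig1- library of set 1, and 74718 and 81726 in set 2. These were levels of 728 and 427 CPM in set 1 and of 1301 and 1513 CPM in set 2. Lrig1+ cells thus had 1.70 times the level of Lrig1- cells in set 1 (log2 ratio 0.77) and 0.860 times in set 2 (-0.22), and the groups overlapped. The log2 fold change over all libraries was 0.06 with an SE of 0.79. Of the 9 genes with counts in both libraries of the group, Ighm differed least between the sets in Lrig1+ cells, where set 2 had 1.79 times the level of set 1.

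Ighd, which encodes the heavy chain of IgD and is made from the same primary transcript as Ighm (gene ID 380797, chr12:113407535-113416324), had 11.7 and 6.95 CPM in Lrig1+ and Lrig1- cells of set 1 and 35.1 and 78.7 CPM in set 2. It was thus on the higher side in Lrig1+ cells of set 1 (log2 ratio 0.74) and on the lower side in set 2 (-1.16). Both ratios lay further from 0 than the counting error of the libraries, whose 95% interval ran from 0.55 to 0.94 in set 1 and from -1.24 to -1.09 in set 2. The interval covers counting error only and says nothing of the spread between samples.

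The share of Ighd in the counts of Ighm plus Ighd was 1.58% (95% Wilson interval 1.46 to 1.70) and 1.602% (1.44 to 1.78) in Lrig1+ and Lrig1- cells of set 1, a difference not detectable at this depth. In set 2 it was 2.62% (2.51 to 2.74) and 4.94% (4.80 to 5.09). Lrig1+ cells had the lower share in set 2 beyond the counting error, but over the 4 libraries the difference of the group means, -1.17 percentage points, was smaller than the spread between libraries (exact permutation test, two-sided, p = 0.667).

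Of the class-switched genes, Igha, the heavy chain gene of IgA, was the most abundant per length in each library. Igha (gene ID 238447, chr12:113256204-113260236) had 7.87 and 5.35 CPM in Lrig1+ and Lrig1- cells of set 1 and 28.1 and 70.1 CPM in set 2. It was the gene with the largest log2 difference in set 2, -1.32 on the log2 scale, and had 0.55 in set 1. Its FPKM, a level per length, was 6.16 and 4.17 in set 1 and 20.6 and 48.2 in set 2.

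The 4 IgG genes were lower still and did not move alike. Ighg2b (gene ID 16016, chr12:113304314-113307933) had 2.52 and 1.11 CPM in Lrig1+ and Lrig1- cells of set 1 and 10.1 and 20.6 CPM in set 2. Its log2 ratio was 1.16 in set 1 and -1.03 in set 2, so the direction was opposite in the sets and larger than counting error in each (intervals 0.72 to 1.68 and -1.18 to -0.89). Ighg2c (gene ID 404711, chr12:113287389-113288932) is the C57BL/6 gene in the place of Ighg2a, and its row, read on the minus strand, ends with the stop codon of the secreted form printed above. It had 0.769 and 0.856 CPM in set 1 and 15.5 and 19.0 CPM in set 2, a log2 ratio of -0.15 and -0.29, and the counting interval of the first holds 0.

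Ighg3 (gene ID 380795, chr12:113357442-113361232) had 1.11 and 1.00 CPM in Lrig1+ and Lrig1- cells of set 1 and 3.59 and 2.70 CPM in set 2. It was the 1 member higher in Lrig1+ cells in both sets (log2 ratio 0.15 and 0.40, 35.9% of all genes were higher in both), from 58 and 48 counts in set 1 and 206 and 146 in set 2. In set 1 the difference lay within counting error (interval -0.42 to 0.74).

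Ighg1 (gene ID 16017, chr12:113326541-113330523) had 0 counts in the Lrig1+ library of set 1 and 64 counts, 1.34 CPM, in the Lrig1- library. With a floor of 3 counts put in for that library, it was 23.2-fold lower in Lrig1+ cells. The 95% counting interval of the log2 ratio, which also covers the error of the 64 counts, ended at -4.19. In set 2 it had 228 counts, 3.97 CPM, and 377 counts, 6.98 CPM, a log2 ratio of -0.81. The fitted log2 fold change over all libraries was -1.07 with an SE of 2.35. The prior count of 2 entered the ratios within sets and not this value.

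**Figure D2:**
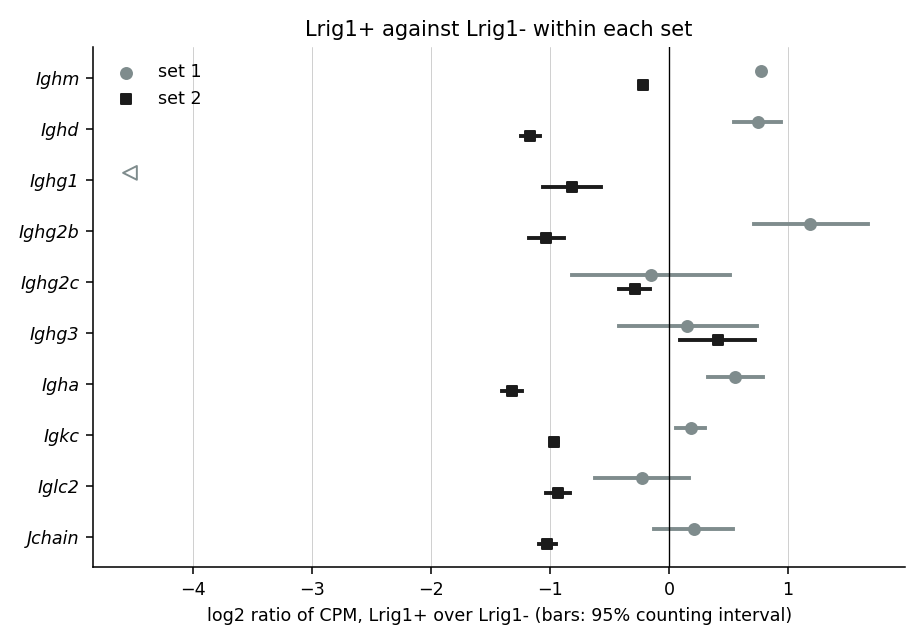
Ratio of Lrig1+ over Lrig1- within set 1 (grey circles) and set 2 (black squares) for each gene, on a log2 axis and without a prior count. Bars are 95% counting intervals, and the open triangle marks Ighg1 in set 1, with the Lrig1+ library put at a floor of 3 counts. The black squares of 9 genes lie below 0 and that of Ighg3 above it, while the grey circles of 7 genes lie above 0.

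The 5 class-switched genes together took 1.63% (95% Wilson interval 1.51 to 1.76) of the heavy chain constant counts in the Lrig1+ library and 2.17% (1.99 to 2.38) in the Lrig1- library of set 1. In set 2 the shares were 4.38% (4.24 to 4.53) and 6.98% (6.81 to 7.14). Lrig1+ cells thus had the lower share in both sets, by more than the counting error. The group means, 3.01% and 4.57%, differed by less than the spread between libraries (exact permutation test, two-sided, p = 0.667).

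This share turns on Ighm, the bulk of its denominator. Without Ighm the class-switched genes took 51.3% and 58.1% of the remaining heavy chain counts in Lrig1+ and Lrig1- cells of set 1, and 63.6% and 60.3% in set 2. The direction then differed between the sets (exact permutation test, p = 1). Within the class-switched counts, Igha took 64.1% and 55.4% in set 1 and 45.8% and 58.7% in set 2, so Lrig1+ cells had the larger Igha share in set 1 and the smaller one in set 2. Ighg2c took 6.27% and 8.87% of them in set 1 against 25.4% and 15.9% in set 2. The rows of Ighm and Igha run past the stop codons of their secreted forms, and that of Ighg2c does not. Shares and levels per length thus compare unlike rows between these genes.

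**Figure D3:**
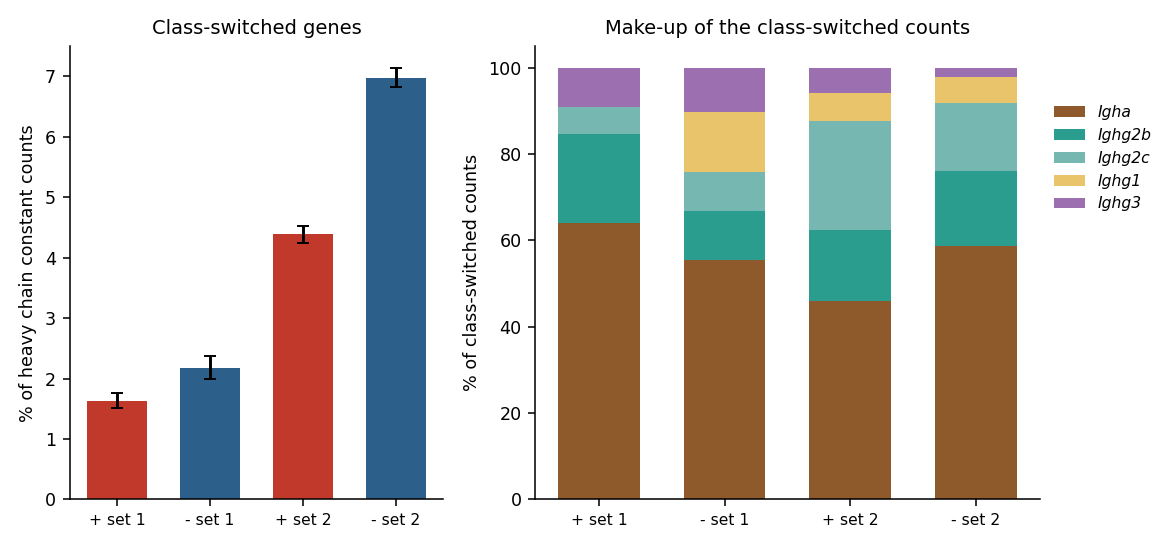
Left, share of the class-switched genes (Igha and the 4 IgG genes) in all heavy chain constant counts, in percent, with 95% Wilson intervals as bars. Right, make-up of the class-switched counts by gene, in percent, for Lrig1+ (+) and Lrig1- (-) libraries of each set. The left share runs from 1.63% to 6.98%, and on the right Ighg1 is missing from the Lrig1+ library of set 1.

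Igkc, the constant gene of the kappa light chain (gene ID 16071, chr6:70726435-70726754, a row of 320 bases), had 1260 and 1023 counts in the Lrig1+ and Lrig1- libraries of set 1 and 13091 and 24013 in set 2. Its level was 24.2 and 21.4 CPM in set 1 and 228 and 445 CPM in set 2. The libraries of set 1 lay close together (log2 ratio 0.18), and in set 2 Lrig1+ cells had 0.513 times the level of Lrig1- cells (-0.96). Between the sets the level differed 9.41-fold in Lrig1+ and 20.8-fold in Lrig1- cells. The log2 fold change over all libraries was -0.89 with an SE of 1.74.

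Iglc2, a constant gene of the lambda light chain (gene ID 110786, chr16:19198536-19198852), followed Igkc at a lower level, with 2.0 and 2.34 CPM in Lrig1+ and Lrig1- cells of set 1 and 22.2 and 42.3 CPM in set 2. Its log2 ratio was -0.22 in set 1, within the counting interval of -0.63 to 0.17, and -0.93 in set 2. The share of Iglc2 in the counts of Igkc plus Iglc2 was 7.62% (6.33 to 9.16) and 9.87% (8.27 to 11.7) in set 1 and 8.88% (8.42 to 9.35) and 8.69% (8.36 to 9.04) in set 2. These shares overlapped in their intervals within each set, and the group means did not differ beyond the libraries (exact permutation test, two-sided, p = 0.667).

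Jchain, the joining chain gene (gene ID 16069, chr5:88519809-88527897), had 3.33 and 2.88 CPM in Lrig1+ and Lrig1- cells of set 1 and 39.5 and 80.4 CPM in set 2. It was near the same level in both libraries of set 1 (log2 ratio 0.20, counting interval -0.12 to 0.54), and lower in the Lrig1+ library of set 2 (-1.02). The level in Lrig1- cells was 27.9-fold higher in set 2 than in set 1, the largest such ratio among the 10 members.

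Jchain kept pace with Igkc. Per 1000 Igkc counts there were 137 and 135 Jchain counts in Lrig1+ and Lrig1- cells of set 1 and 173 and 181 in set 2, so the highest of the 4 libraries was 1.34 times the lowest. The groups did not differ in this ratio beyond the libraries (exact permutation test, two-sided, p = 1). Jchain against Igha was less even, with 423 and 539 Jchain counts per 1000 Igha counts in set 1 and 1407 and 1147 in set 2.

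Ighm did not keep pace with the light chains. There were 30.1 and 19.995 Ighm counts per Igkc count in Lrig1+ and Lrig1- cells of set 1 and 5.71 and 3.40 in set 2, so the highest was 8.83 times the lowest. Lrig1+ cells had 1.503 times the ratio of Lrig1- cells in set 1 and 1.68 times in set 2. The direction was the same in both sets, but the difference was smaller than that between the sets (log2 difference of group means 0.67, exact permutation test, two-sided, p = 0.667). Without the Lrig1+ library of set 1 or the Lrig1- library of set 2, which leaves the sets unequal in the groups, that log2 difference was -0.53 or -0.61.

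Per length, the order of the members changed with this ratio. In set 1 Ighm had an FPKM of 470 in Lrig1+ and 275 in Lrig1- cells, well above Igkc at 72.8 and 64.1. In set 2 Ighm had 788 and Igkc 643 in Lrig1+ cells, and in Lrig1- cells Igkc, at 1172, was above Ighm, at 856. Iglc2, Ighd and Igha came next in every library, with an FPKM of 6.02, 11.1 and 6.16 in Lrig1+ cells of set 1 and of 63.2, 31.4 and 20.6 in set 2. Jchain had an FPKM of 17.0 and 32.3 in Lrig1+ and Lrig1- cells of set 2, above the IgG genes, which had 1.89 to 15.9. Over the 2 libraries of a group the SD was near or above the mean for most members, as for Igkc at 358 ± 403 (SD, n = 2) in Lrig1+ and 618 ± 783 (SD, n = 2) in Lrig1- cells. In Lrig1+ cells neighbours in the order of mean FPKM differed by less than the larger of their SDs. In Lrig1- cells the same held except between Ighm, at 566 ± 411 (SD, n = 2), and the next gene Iglc2, at 59.8 ± 74.7 (SD, n = 2).

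Cd79a, a signalling chain of the B cell receptor, gave the same picture as Igkc. There were 2.21 and 1.91 Igkc counts per Cd79a count in Lrig1+ and Lrig1- cells of set 1 and 2.61 and 2.45 in set 2, a span of 1.36-fold over the 4 libraries. Per Cd79a count there were 66.3 and 38.2 Ighm counts in set 1 and 14.9 and 8.33 in set 2, a span of 7.96-fold. Against Trac, in contrast, Ighm spanned 2.12-fold, with 1.02 and 0.560 Ighm counts per Trac count in set 1 and 1.15 and 1.18 in set 2. Igkc spanned 12.4-fold against Trac. These ratios were computed after the levels had been seen.

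The variable segments differed in the same way between the chains. Summed over 183 Ighv genes there were 15.4 and 29.4 counts per 1000 Ighm counts in Lrig1+ and Lrig1- cells of set 1 and 55.5 and 105 in set 2. Lrig1- cells had 1.92 times the ratio of Lrig1+ cells in set 1 and 1.88 times in set 2. Over 162 Igkv genes there were 675 and 770 counts per 1000 Igkc counts in set 1 and 869 and 939 in set 2, a span of 1.39-fold. Each ratio was lower in Lrig1+ cells in both sets, but over all libraries the groups overlapped (exact permutation test, two-sided, p = 0.667 each). That test does not pair the libraries of a set, so the difference between the sets enters its spread.

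The joining segment Ighj1, which lies upstream of Ighm, had 160 and 28 counts in Lrig1+ and Lrig1- cells of set 1 and 250 and 225 in set 2. Per 1000 Ighm counts this was 4.22 and 1.37 in set 1 and 3.35 and 2.75 in set 2. This segment was chosen after its values were seen, and its ratio was higher in each Lrig1+ library than in either Lrig1- library, at the smallest p that 2 against 2 can give (exact permutation test, two-sided, p = 0.3333). All Ighj segments together did not separate the groups. They had 7.82 and 3.72 counts per 1000 Ighm counts in Lrig1+ and Lrig1- cells of set 1 and 7.92 and 10.3 in set 2, with Lrig1+ cells higher in set 1 and lower in set 2 (exact permutation test, two-sided, p = 1). Variable and joining segments are short and resemble one another, so reads could be split between them in counting.

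**Figure D4:**
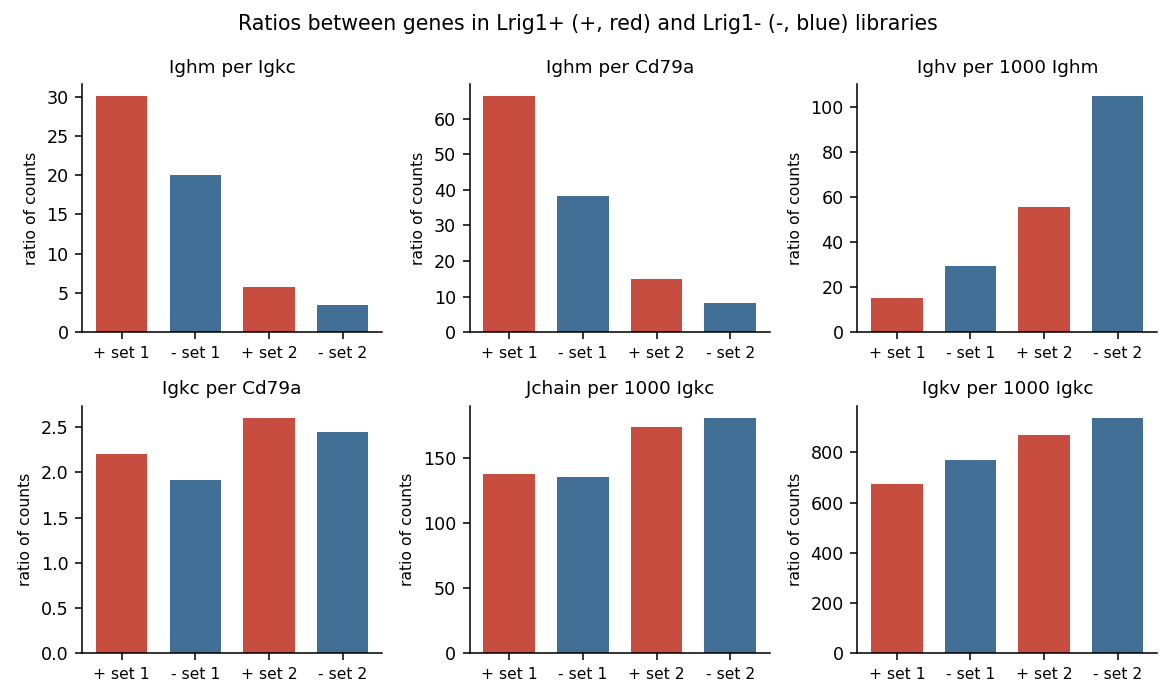
Ratios of counts between genes in each library, Lrig1+ (+) in red and Lrig1- (-) in blue, with axes starting at 0. Upper row, Ighm per Igkc, Ighm per Cd79a and Ighv per 1000 Ighm, which span 8.83-, 7.96- and 6.80-fold over the libraries. Lower row, Igkc per Cd79a, Jchain per 1000 Igkc and Igkv per 1000 Igkc, which span 1.36-, 1.34- and 1.39-fold.

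The other immunoglobulin constant and surrogate chain genes were listed with the members. The tables hold 8 of them, of which 4 were tested. Ighe, the heavy chain gene of IgE, had 0 counts in the other libraries and 5 counts in the Lrig1- library of set 2. Iglc3 had 106 and 101 counts in Lrig1+ and Lrig1- cells of set 1 and 964 and 1935 in set 2. Iglc1 had 55 and 73 counts in set 1 and 903 and 1620 in set 2. The lambda genes thus had the pattern of Iglc2. The 4 genes tested had a median log2 ratio of 0.22 in set 1 and -1.01 in set 2. None of them was called by edgeR's quasi-likelihood test, and with the table block 2 of the 4 tested were called lower, Iglc1 (log2 fold change -0.81, edgeR, adjusted p = 0.00673) and Iglc3 (-0.73, adjusted p = 0.0479). Among the surrogate light chain genes, which precursor B cells use, Vpreb3 had 13 and 8 counts in set 1 and 160 and 370 in set 2, while Vpreb1 had 32 and 18 in set 1 and 46 and 29 in set 2.

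Genes of the B cell receptor and the B lineage had the pattern of the light chains. All 17 of the list were tested, none was at 0 in any library, and they summed to 216 and 598 CPM in Lrig1+ cells (set 1 and set 2) and to 199 and 1102 CPM in Lrig1- cells. The median log2 ratio of the list was -0.09 (set 1) and -1.06 (set 2), and 11 of the 17 were lower in both sets (42.1% of all genes were). The quasi-likelihood test called 0 of the 17, and with the table block 1 was called higher and 6 lower. The part of B cell RNA in the levels of the 10 members was not tested.

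Within that list, Ms4a1, which encodes CD20, had 5.77 and 6.79 CPM in Lrig1+ and Lrig1- cells of set 1 and 69.3 and 150 CPM in set 2, and with the table block it was called lower (log2 fold change -0.78, edgeR, adjusted p = 0.0183). Pou2af1, a coactivator of octamer factors at immunoglobulin promoters, was the 1 gene called higher with the block (log2 fold change 0.67, adjusted p = 0.0377). It had 1868 and 778 counts in set 1 and 3950 and 3158 in set 2. Cd22, an inhibitory receptor, had a log2 ratio of 1.02 in set 1 and -0.55 in set 2. This pair of signs was that of 6 of the 10 members and of 14.8% of all genes.

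The antibody-secreting cell list did not follow the members as a whole. Of 16 genes 15 were tested, with a median log2 ratio of 0.27 in set 1 and 0.00 in set 2 and sums of 704 and 829 CPM in Lrig1+ and 588 and 783 CPM in Lrig1- cells. Tnfrsf17, which encodes the plasma cell receptor BCMA, had 0 counts in both libraries of set 1 and 7 and 8 in set 2, and Sdc1, which encodes CD138, had 15 and 25 in set 1 and 116 and 174 in set 2. With so few counts of Tnfrsf17 in set 2, its 0 in set 1 cannot show whether it differed from Igkc and Jchain. Sdc1 was lower in set 1 than in set 2, as Igkc and Jchain were. The part of plasma cell RNA in the members' levels was not tested. The quasi-likelihood test called 0 of the 15, and with the table block 4 were called higher and 1 lower. Those called higher include Xbp1 and Irf4, which T cells also express. Mzb1, a chaperone of antibody assembly, was the one called lower (log2 fold change -0.75, edgeR, adjusted p = 0.0214), with 49 and 54 counts in set 1 and 765 and 1397 in set 2. In this list Tnfrsf17, Sdc1 and Mzb1 were chosen outside the order of abundance, after their values were seen.

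The genes of class switch recombination, mostly DNA repair genes that dividing cells share, were near even between groups. All 19 were tested, with a median log2 ratio of -0.09 in set 1 and -0.05 in set 2, and 0 were called without and 1 higher and 4 lower with the table block.

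Of 11 receptors that bind immunoglobulin, 8 were tested, and the list had a median log2 ratio of -0.04 in set 1 and -0.27 in set 2. Fcmr, the receptor for IgM, which B cells and some T cells carry, had 505 and 252 counts in Lrig1+ and Lrig1- cells of set 1 and 3574 and 5699 in set 2. Its log2 ratio was 0.88 in set 1 and -0.76 in set 2, the pair of signs that 6 of the 10 members had (14.8% of all genes). The quasi-likelihood test called 0 of the 8, and with the table block 0 were called higher and 3 lower.

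Markers of other cells differed between the sets, and some also between the groups. The 8 myeloid genes summed to 41.0 and 189 CPM in Lrig1+ cells (set 1 and set 2) and to 40.5 and 219 CPM in Lrig1- cells, and the 5 erythroid genes to 9.27 and 84.3 CPM and to 9.34 and 95.7 CPM. Cd8a and Cd8b1 summed to 14.1 and 51.6 CPM and to 19.5 and 97.3 CPM. The 5 NK cell genes summed to 31.4 and 59.0 CPM and to 28.6 and 67.9 CPM, and the 5 genes of plasmacytoid dendritic cells to 79.5 and 85.9 CPM and to 79.2 and 134 CPM.

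Within the last pair of lists the sums hide differences between the groups. Of the 5 NK cell genes 4 were lower in Lrig1+ cells in both sets, the median log2 ratio was -1.25 in set 1 and -1.38 in set 2, and with the table block 3 were called lower and 1, Eomes, higher. Klrb1c, which encodes the NK1.1 receptor, had a log2 ratio of -1.79 in set 1 and -1.78 in set 2 (with the block, edgeR, adjusted p = 3.3e-05). Of the 5 genes of plasmacytoid dendritic cells 3 were lower in Lrig1+ cells in both sets, the median log2 ratio was -1.34 in set 1 and -1.18 in set 2, and with the block 3 were called lower and 1, Runx2, higher. Siglech, a surface lectin of these cells, had -1.73 in set 1 and -3.39 in set 2 (with the block, edgeR, adjusted p = 0.00178). Both genes of the CD8 list were also called lower with the block. Without the block, none of the genes in these 3 lists was called.

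No gene of the lists of other cells was at 0 in any library, and their part in the members' levels was not tested. Among all genes tested, 34.4% were higher in both libraries of set 2 than in both of set 1, as all 10 members were, and 2.78% were so with a mean of set 2 at least 5 times that of set 1, as 8 of the 10 members were.

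The 5 Treg genes summed to 2020 and 1717 CPM in Lrig1+ cells and to 207 and 140 CPM in Lrig1- cells, and 5 of 5 were higher in Lrig1+ cells in both sets. With the table block 5 were called higher, and without it 0.

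The genes most like Igkc and Jchain were sought among 12685 genes that are not immunoglobulin genes and have a mean count of at least 50, by the Euclidean distance of mean-centred log2 CPM over the 4 libraries. The 5 nearest to Igkc were Mgst1 (distance 0.219), Cd79a (0.340), Ms4a1 (0.3797), Mzb1 (0.443) and S100a8 (0.465), and the 5 nearest to Jchain were Vpreb3 (0.278), Mzb1 (0.329), Ms4a1 (0.351), S100a8 (0.506) and Mgst1 (0.582). Of these Cd79a, Ms4a1, Mzb1 and Vpreb3 are B lineage genes, S100a8 is a gene of neutrophils and Mgst1 encodes a glutathione transferase. Mgst1 was near the floor in set 1, at 0.115 and 0.104 CPM in Lrig1+ and Lrig1- cells. The prior count of 2 therefore weighs on its distances. For Ighm, added after its values were seen, the 5 nearest held no gene of the B lineage list, and among them Rpl36, a ribosomal protein gene, had 266 and 193 CPM in Lrig1+ and Lrig1- cells of set 1 and 599 and 595 CPM in set 2. With 4 libraries, such distances describe these libraries and carry no test.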

How the data were processed

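Reads were processed by the authors with Trimmomatic 0.38, HISAT2 2.1.0 and StringTie 2.1.3b against GRCm38 (mm10), per the labels' processing notes and the methods. The deposited tables give, for 129299 transcripts, estimated counts that are not normalized, FPKM (per length and library size) and TPM values made by the authors. TPM was not used. Another table, whose 6 value columns do not name the Lrig1 group, was not used.

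Counts were summed per gene, filtered with filterByExpr, TMM-normalized and tested with edgeR 4.0.16 (R 4.3.3) by the quasi-likelihood test on group, without covariates, with Benjamini-Hochberg adjustment over 16123 genes and a threshold of 0.05. A prior count of 2 entered the log2 ratios within sets. Shares have Wilson intervals at 95%, and floors are 3 counts, both for counting error only. Exact permutation tests were two-sided and over libraries, which were not paired by set. DESeq2 1.42.0 and limma 3.58.1 gave alternatives. The procedure was tested on simulated data that held no difference between sets. That test therefore does not show how many changed genes would be found in these libraries. Windows of 50 coding bases were compared with GENCODE transcripts on both strands. The 10 genes and all lists were chosen with earlier results of these data known. The text names all members, up to 8 genes from each of the other immunoglobulin, B lineage and antibody-secreting lists and up to 4 from the others by mean CPM, except where stated, and the 5 genes nearest to Igkc and to Jchain.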

Additional observations from a re-analysis of the deposited data

Results flagged for a closer look

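For 6 members the library of CD4+Lrig1+ T cells lay above that of CD4+Lrig1- T cells in set 1 and below it in set 2, and this difference between the sets was not tested, since each set holds 1 library per group. The log2 ratios in set 1 and set 2 were 0.77 and -0.22 for Ighm, 0.74 and -1.16 for Ighd, and 1.16 and -1.03 for Ighg2b. They were 0.55 and -1.32 for Igha, 0.18 and -0.96 for Igkc, and 0.20 and -1.02 for Jchain. With 2 libraries per group, no single library could be checked against the others of its group.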

How the results depend on the processing

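With 2 libraries per group the results depend on single libraries. Leaving out each library in turn, the calls over all genes numbered 2 to 90 and those among the members 0. The log2 fold change then ran from -0.53 to 1.25 for Ighm, -1.89 to 1.75 for Ighd, -10.74 to 0.58 for Ighg1, -2.12 to 2.51 for Ighg2b, -3.69 to 3.26 for Ighg2c, -0.74 to 1.23 for Ighg3, -2.27 to 1.76 for Igha, -3.27 to 2.57 for Igkc, -3.49 to 2.38 for Iglc2 and -3.65 to 2.90 for Jchain. The highest value of each member came without the Lrig1- library of set 2, and the lowest without the Lrig1+ library of set 2, or for Ighm without the Lrig1- library of set 1. These fits have no term for the set, and the lone library of a group is assumed to vary like the other group. The difference of the summed CPM ran from -0.99 to 1.29 on the log2 scale. In percentage points, the class-switched share ran from -3.97 to 0.833, the Ighd share from -2.84 to 0.498 and the Iglc2 share from -1.66 to -0.405. On the log2 scale, Jchain per Igkc ran from -0.23 to 0.19, Ighm per Igkc from -0.61 to 1.94, Ighv per Ighm from -1.85 to 0.0019 and Igkv per Igkc from -0.33 to 0.032. The sum changed sign without the Lrig1- library of set 1 (-0.99) or the Lrig1+ library of set 2 (-0.41). The class-switched share, the Ighd share, Jchain per Igkc (0.19) and Ighm per Igkc (-0.61) changed sign without the Lrig1- library of set 2. Jchain per Igkc (0.15), Ighm per Igkc (-0.53), Ighv per Ighm and Igkv per Igkc changed sign without the Lrig1+ library of set 1.

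Over all genes, the DESeq2 Wald test called 310 (260 higher, 50 lower), edgeR's exact test 213 (196 and 17) and the table block 4414 (2358 and 2056). The cause was not tested. The block, chosen with earlier results known, left 1 residual degree of freedom and called 1 member, Iglc2. Summed without Ighm, chosen after seeing the data, the difference was -0.34, and Ighg2b had 0.090 by limma on log2(FPKM + 0.1). Under the alternatives that keep every library, the other results kept their direction and their side of the threshold. These were 27 planned and 2 chosen after seeing the data for the comparisons, and 87 for single members. Where a permutation test gave the p, that side was fixed in advance, since 2 libraries against 2 cannot give a p below 0.3333. Taking only the row with the most counts of each gene was among these alternatives. It repeats the main values, since each member has 1 row. Ighg1 was not tested where at least 10 counts in every library were asked for. The table block pairs the libraries of 1 table. By the replicate numbers of the labels, no paired analysis was possible because the columns carry none.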
